A study of Mus musculus with 14 samples.

Results

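Nuclear and neural long non-coding RNAs of the newborn mouse cortex are described here by 10 genes: Malat1, Neat1, Miat, Rmst, Sox2ot, Dlx6os1, Pantr1, Gm26917, Tug1 and Kcnq1ot1. They were taken by GENCODE symbol and make up 10 of 51626 symbols and 69 of 128508 transcript rows, 4 of them at 0 in every library, in each of 3 tables of FPKM, in which fragments are divided by transcript length and by library size. The first table holds polyA-selected RNA of frontal cortex at postnatal day 0.5 from 4 wild type C57BL6/J mice and 4 conditional knockout (cKO) mice. The cKO mice carry Auts2 with exon 15 flanked by loxP sites on both alleles and an Emx1-driven Cre recombinase, which acts in the progenitors of cortical excitatory neurons and leaves Auts2 intact in interneurons and other cells that do not descend from them. The other 2 tables hold RNA immunoprecipitation (RIP) from C57BL6/J cortex of the same age, with 2 pooled neonates per library: 2 RIP libraries pulled down through the C-terminal part of the AUTS2 protein, 2 pull-downs with control IgG and 2 libraries of 10% input, in matched trios A and B made from total RNA. The title of the study frames AUTS2 as part of an RNA-binding complex, and the comparisons ask which RNAs differ when Auts2 is deleted and which are recovered with the antibody.

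Long non-coding RNAs are transcripts without a known protein product, and several of these 10 act where they are made. Malat1 is a very abundant RNA of nuclear speckles, the compartments that store splicing factors. Neat1 is the scaffold of paraspeckles, a second kind of nuclear body, and only its long form builds them. Miat, also called Gomafu, forms its own nuclear domain in neurons and binds the splicing factor SF1. Kcnq1ot1 is transcribed from the paternal chromosome and silences a cluster of imprinted genes in cis. Sox2ot, Dlx6os1 and Pantr1 lie beside or across genes of neural transcription factors, and Rmst is a neurogenic RNA that binds SOX2. Tug1 is an RNA of the brain and many other tissues, and Gm26917 is a gene model in the same stretch of chromosome 17 as Gm42418, a row often treated as derived from ribosomal RNA.

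In GENCODE vM21 (build GRCm38) Malat1 lies at chr19:5795690-5802672 and Neat1 at chr19:5824708-5845478, both on the minus strand and 22035 bases apart. Miat lies at chr5:112213228-112229395 (minus), Rmst at chr10:92071037-92165170 (minus) and Sox2ot at chr3:34104270-34682619 (plus), with Sox2 inside it on the same strand. Dlx6os1 lies at chr6:6820189-6871592 (minus) across Dlx6, Pantr1 at chr1:42590782-42694842 (minus) with 925 bases to Pou3f3, and Gm26917 at chr17:39843013-39846341 (plus). Tug1 lies at chr11:3639785-3649673 (minus), and Kcnq1ot1 at chr7:143203458-143296549 (minus) within Kcnq1 on the opposite strand. Exons of Tug1 share 483 bases with Morc2a and those of Kcnq1ot1 share 121 bases with Kcnq1, in each case on opposite strands. No source used here gives the strand setting of the counting, so reads from those shared bases cannot be told apart.

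The sequences below come from the GENCODE vM21 transcripts and show features of these RNAs, or the bases that separate isoforms discussed further on. Miat is known for tandem copies of TACTAAC, the branch point letters that SF1 reads. Miat-201 held 6 copies on the sense strand, 3 of them within bases 5176 to 5236 (chr5:112216752-112216812, minus strand, copies in capitals). Of 6401 transcripts of at least 5 kb, 15.1% held at least 1 copy and 0.0312% held 5 or more. The latter were Miat-201 and Miat-205 themselves, with 6 copies each. Kcnq1ot1-201 held 4 copies in 93092 bases.
Miat-201: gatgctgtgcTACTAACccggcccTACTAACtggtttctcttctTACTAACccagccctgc
At least 1 copy was found in 3.77% of 120943 transcripts of 200 bases or more, and at least 3 copies in 0.0198%. The largest count in any of them was 8, in a transcript under 5 kb, so Miat does not hold the most copies.

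Malat1 and long Neat1 end without a poly(A) tail, in an A-rich tract that pairs with U-rich stretches upstream. The tract AAAAAGCAAAA, the last 11 bases of long Neat1, and the U-rich TTTTGCTTTT, the reverse complement of its last 10, are in capitals in Malat1-201, bases 6592 to 6691 (chr19:5795982-5796081, minus), and in Neat1-201, bases 20672 to 20771 (chr19:5824708-5824807, minus).
Malat1-201: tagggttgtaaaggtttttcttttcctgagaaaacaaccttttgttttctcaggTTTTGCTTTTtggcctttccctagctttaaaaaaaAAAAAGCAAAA
Neat1-201: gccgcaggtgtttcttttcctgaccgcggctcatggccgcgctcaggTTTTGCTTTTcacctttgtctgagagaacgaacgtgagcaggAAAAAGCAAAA
Searched on the sense strand, AAAAAGCAAAA stood in 0.470%, TTTTGCTTTT in 1.14% and both together in 0.0198% of the 120943 transcripts. Among the transcripts of the 10 genes only Malat1-201 and Neat1-201 held both.

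The short form of Neat1 ends instead in a conventional polyadenylation signal, AATAAA, shown in capitals in bases 2955 to 3004 of Neat1-202 (chr19:5842307-5842356, minus).
Neat1-202: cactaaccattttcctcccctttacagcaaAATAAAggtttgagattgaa
The same letters stood in the last 50 bases of 28.5% of transcripts.

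The first 100 bases of Gm26917-202 (chr17:39843013-39843112, plus) show its base composition, which was 69.1% G and C over the whole transcript against a median of 49.4% over transcripts.
Gm26917-202: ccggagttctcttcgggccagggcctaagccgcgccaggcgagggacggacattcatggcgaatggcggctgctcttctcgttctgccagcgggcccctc

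Sox2ot-206, the largest Sox2ot isoform in frontal cortex, and Sox2ot-210, the largest in input, share their last exon and 2325 bases in all. Their junctions into that exon are printed with its first bases in capitals (chr3:34675669-34675698, plus), preceded in lower case by chr3:34638610-34638639 in Sox2ot-206 and by chr3:34665419-34665448 in Sox2ot-210.
Sox2ot-206: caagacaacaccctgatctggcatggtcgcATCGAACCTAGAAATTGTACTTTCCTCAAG
Sox2ot-210: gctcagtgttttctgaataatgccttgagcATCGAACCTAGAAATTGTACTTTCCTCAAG

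Auts2, the targeted gene, stood at 87.7, 92.2, 55.9 and 60.2 FPKM in wild type 1 to 4 and at 29.8, 35.2, 30.4 and 34.5 FPKM in cKO 1 to 4, with no overlap. Libraries held 44946 to 63043 transcripts above 0. The tables give no counts, so the depth behind each value is unknown and counting error cannot be stated. A listed 0 may be a failed estimate, as for the abundant tubulin Tubb3, which has 0 in each of the 8 frontal cortex libraries. In frontal cortex none of the markers of excitatory neurons, radial glia and interneurons fixed for the tissue was at 0. The same held for the lists of glia, microglia, endothelium, red blood cells and striatum, so it does not mark the tissue.

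In wild type frontal cortex the 10 RNAs ranged widely in level per length. Miat was highest at 165 ± 5.58 FPKM (SD, n = 4), followed by Malat1 at 107 ± 12.7 and Pantr1 at 93.9 ± 7.49, whose ranges overlapped. Tug1 stood at 49.2 ± 2.57 FPKM, apart from its neighbours in the order. Sox2ot at 14.5 ± 2.35 and Dlx6os1 at 11.7 ± 4.56 FPKM overlapped each other and stayed above Gm26917 at 2.49 ± 0.948. Neat1 at 0.934 ± 0.247 and Rmst at 0.663 ± 0.239 FPKM overlapped, and Kcnq1ot1 was lowest at 0.207 ± 0.0492.

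The total RNA libraries gave another order, described across tables without a test because each table was scaled on its own. In the input libraries Malat1 was the highest at 1759 and 2158 FPKM, ahead of Miat at 119 and 122. Malat1 stood at 0.541 to 0.784 times Miat in the 8 polyA-selected libraries and at 14.8 and 17.7 times Miat in the input libraries. Among all genes Malat1 ranked between 417 and 700 in frontal cortex, 7 in both input libraries and 3 in both RIP libraries. Gm26917 stood at 1.37 to 3.42 FPKM in frontal cortex and at 42.6 and 41.0 in input. The sets also differ in the cortex region taken and in the library kit, and the part of each in this difference was not tested.

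**Figure D1:**
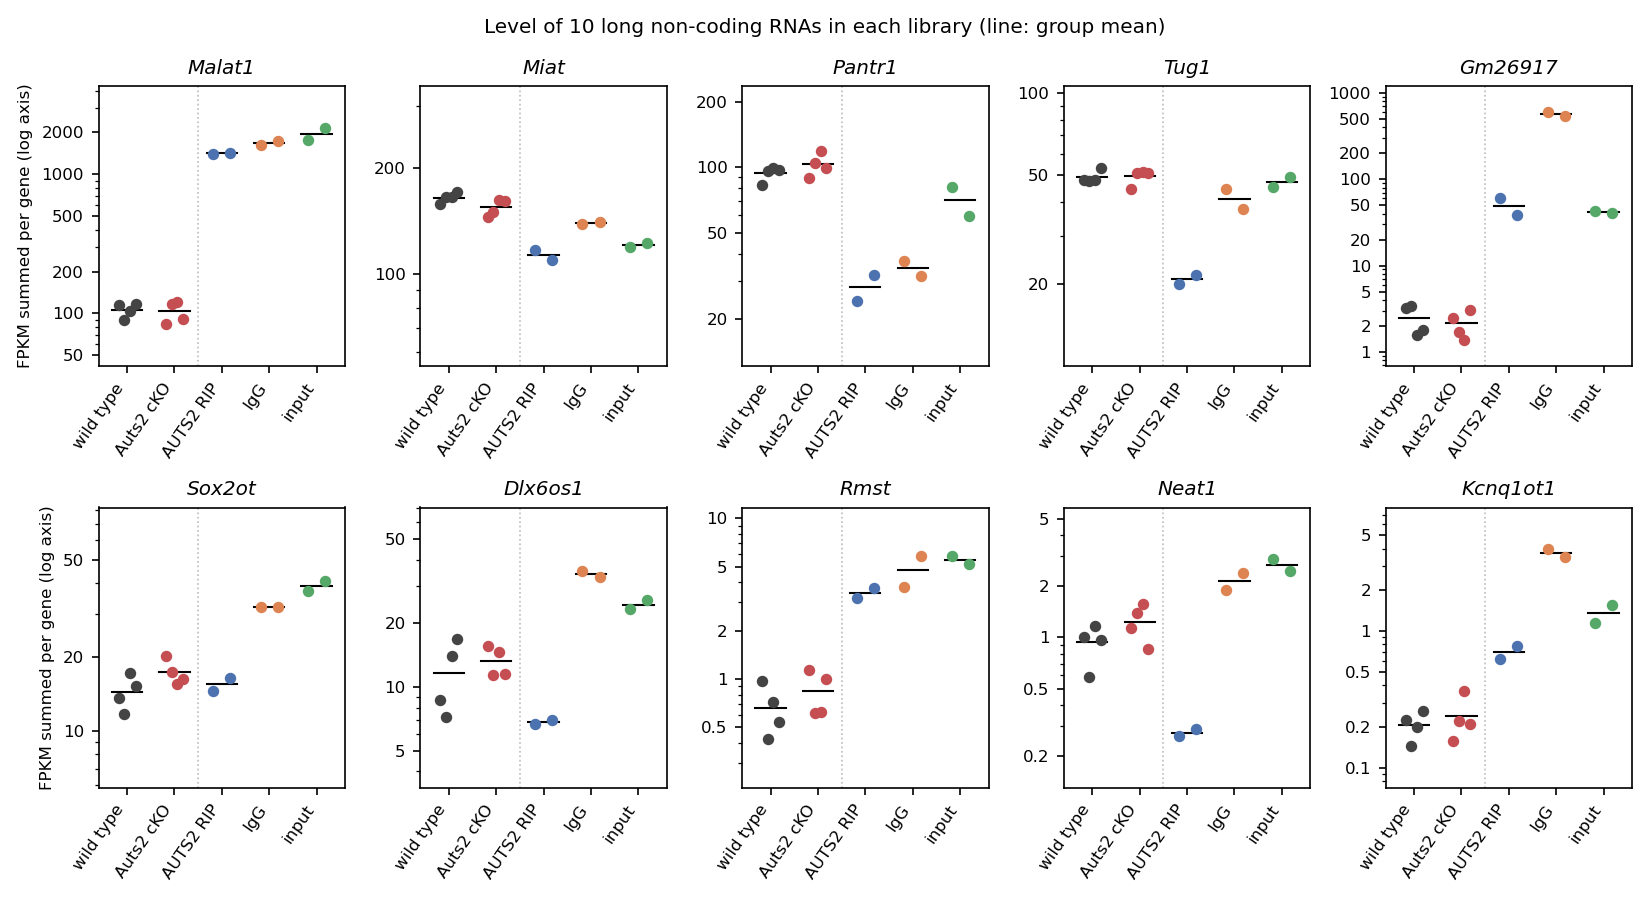
FPKM (log axis) of the 10 long non-coding RNAs, 1 point per library, in wild type and cKO frontal cortex (n = 4 each) and in the AUTS2 RIP, IgG and input libraries (n = 2 each, RIP as scaled with IgG). Lines are group means. Malat1 leads in the total RNA libraries and Miat in frontal cortex. Gm26917 in IgG, at 604 and 541 FPKM, stands far above its other groups.

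None of these RNAs was called different in the Auts2 cKO. Of the 10, 8 reached a mean of 1 FPKM and were tested with limma on log2(FPKM + 1), and 0 passed at an adjusted p of 0.05, with adjusted p from 0.628 to 0.969. Over all 12786 genes 0.00782% were called higher and 0.0156% lower. At an unadjusted p under 0.05 stood 1 of the 8, Sox2ot, against 7.91% of all genes. None of the 10 separated the 4 cKO from the 4 wild type libraries, against 4.41% of all genes. The median log2 difference of the 8 was 0.07, beside 0.00 over all genes. Xist, the X inactivation RNA, stood at 169 ± 114 FPKM in cKO and 54.3 ± 108 in wild type (SD, n = 4). It varied widely within both groups, and its difference did not pass (limma, adjusted p = 0.677). With Xist above 10 FPKM or not as a covariate, 0 of the 8 passed as well.

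Among the RNAs of nuclear bodies, Malat1 stood at 116, 89.5, 105 and 116 FPKM in wild type and at 83.7, 117, 121 and 91.2 in cKO libraries, so the groups overlapped throughout. Its log2 difference was -0.05 ± 0.12 (SE) and turned to 0.04 without cKO 1. Neat1 ran from 0.586 to 1.17 FPKM in wild type and from 0.851 to 1.57 in cKO, a log2 difference of 0.21 ± 0.13. Miat, the most abundant, ran from 158 to 171.5 and from 146 to 162 FPKM, a log2 difference of -0.09 ± 0.06. Kcnq1ot1, with 0.144 to 0.261 FPKM in wild type and 0.158 to 0.366 in cKO, and Rmst, with 0.423 to 0.972 and 0.614 to 1.14, were too low to be tested. In bulk tissue fewer cells of a type and less RNA per cell cannot be told apart, which holds for every difference here.

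Among the RNAs beside transcription factor genes, Sox2ot stood at 13.6, 11.7, 17.2 and 15.3 FPKM in wild type and at 20.1, 17.4, 15.6 and 16.2 in cKO. The cKO libraries lay in the upper part of the range but overlapped the wild type ones, with a log2 difference of 0.25 ± 0.12 (limma, adjusted p = 0.628). Dlx6os1, transcribed across the interneuron gene Dlx6, stood at 8.65, 7.20, 14.0 and 16.9 FPKM in wild type and at 15.7, 11.4, 14.6 and 11.5 in cKO. The wild type libraries split into a low and a high pair, and all 4 cKO libraries lay within the wild type range. Wild type 1 and 2 also lay apart from wild type 3 and 4 in Sox2ot, where they were lower, and in Auts2, where they were higher. Malat1 and Tug1 did not divide them in this way, and the source of the split was not tested. The 10 markers of interneurons and their precursors, a lineage without the Emx1-driven deletion, summed to 287 to 299.6 FPKM in wild type and 295 to 435 in cKO, with 0 of 10 called and 0 at 0. Their part in the Dlx6os1 values was not tested. Pantr1 stood at 82.8, 96.5, 99.2 and 97.2 FPKM against 89.3, 105, 119 and 99.8 in cKO, a log2 difference of 0.13 ± 0.09. Tug1 ran from 47.7 to 53.1 FPKM in wild type and from 44.7 to 51.5 in cKO, a log2 difference of 0.01 ± 0.07 whose sign turned under quantile normalization. Gm26917 ran from 1.56 to 3.42 and from 1.37 to 3.06 FPKM, a log2 difference of -0.14 ± 0.21.

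Dlx6os1, Gm26917 and Sox2ot varied most over the 8 frontal cortex libraries, with SDs of 0.396, 0.356 and 0.222 on the log2(FPKM + 1) scale. Of 9100 genes with at least 5 FPKM on average, the nearest to Dlx6os1 in library-centred pattern were Rsrp1, Zfc3h1 and Gm14204, at root mean square differences of 0.13, 0.15 and 0.16. For Sox2ot they were Timmdc1, Lyrm4 and Acad8 at 0.05, 0.06 and 0.06.

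Among 31 isoform shares tested, 2 separated the genotypes, both in Sox2ot. The same separation was not counted over all transcripts. Sox2ot-206 made up 56.5%, 54.4%, 50.4% and 55.6% of Sox2ot FPKM in cKO 1 to 4 and 44.0%, 45.9%, 39.2% and 47.1% in wild type 1 to 4. Every cKO library was above every wild type library. The means were 54.2% ± 2.71 and 44.0% ± 3.47 (SD, n = 4), with a two-sided exact permutation p of 0.0286, the smallest that 4 against 4 can give. Sox2ot-211, which shares 2607 bases with Sox2ot-206, went the other way, with 6.38% ± 1.56 in cKO and 12.5% ± 2.02 in wild type and the same exact p of 0.0286.

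Sox2ot-206 and Sox2ot-211 were 2 of 31 isoform shares tested, and as parts of 1 total they are not independent. The adjusted p of both exact permutation tests was 0.443, so neither passed the correction over the 31. Because no exact p can be under 0.0286, 2 such shares could not have passed it. The adjusted p therefore does not decide whether these shares differ. In FPKM, Sox2ot-206 stood at 9.43 ± 1.47 in cKO and 6.33 ± 0.809 in wild type, a log2 difference of 0.50 (limma, adjusted p = 0.827). Sox2ot-211 stood at 1.10 ± 0.250 and 1.77 ± 0.123 FPKM, a log2 difference of -0.41. With limma 0 of the 23 tested transcripts of these genes passed, where 0.00373% of 26835 transcripts did. 2 of the 23 had an unadjusted p under 0.05, against 5.68% of all transcripts. The split between isoforms that share most of their bases is a model estimate.

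**Figure D2:**
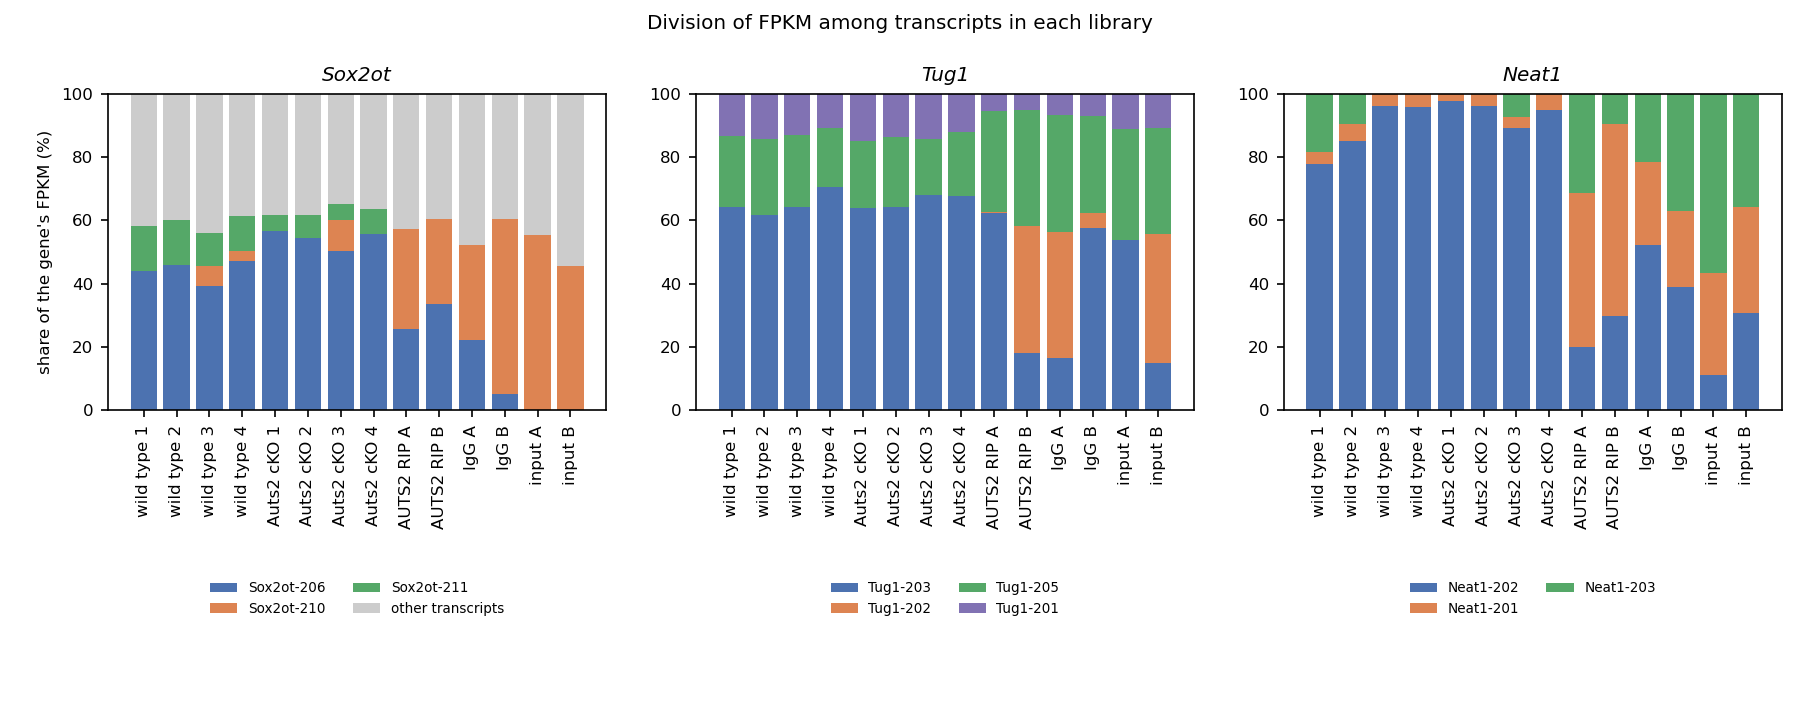
Stacked bars of the percent of Sox2ot, Tug1 and Neat1 FPKM carried by their main transcripts, 1 bar per library, with other transcripts in grey. Sox2ot-206 lies at 50.4% to 56.5% in the cKO bars and at 39.2% to 47.1% in those of wild type; long Neat1 is under 6% in polyA-selected frontal cortex and above 20% in every total RNA library.

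In the AUTS2 RIP, 5 of the 10 RNAs were lower than in the control IgG pull-down and 0 were higher (limma, adjusted p under 0.05). Over all 14570 genes 9.69% were called lower and 13.7% higher. The ranges did not overlap for 9 of the 10, all lower in RIP. Of all genes 64.4% did not overlap, and 30.2% did so with RIP lower. The median log2 difference of the 10 was -0.97, beside 0.02 over all genes. Neat1 and Kcnq1ot1 reached the filter only through the IgG libraries, where they are higher, so their direction follows in part from that filter. With 2 libraries per group the calls are sensitive to single libraries: without RIP A 2 of the 10 were called, and without IgG A 0 of the 10, as 0 of all genes then passed.

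Gm26917 had the largest difference of the 10. It stood at 61.1 and 38.2 FPKM in RIP A and B and at 604 and 541 in IgG A and B. The IgG mean was 11.5 times the RIP mean, a log2 difference of -3.54 ± 0.21 (SE, adjusted p = 0.00248), and 0.0206% of all genes had a lower value. In the rank of all genes Gm26917 was 17 and 20 in the IgG libraries and 1014 and 1779 in the RIP libraries. Input resembled RIP here, at 42.6 and 41.0 FPKM, so the IgG libraries stood apart from both. Under the alternatives that keep all 4 libraries the log2 difference from IgG ran from -3.95 to -3.43.

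Dlx6os1 came next, at 6.69 and 6.95 FPKM in RIP and 35.3 and 33.2 in IgG. The IgG mean was 5.02 times that of RIP, with a log2 difference of -2.17 ± 0.15 (adjusted p = 0.00248). A row of 146 bases under the same symbol, Dlx6os1-204, annotated as a short miscellaneous RNA, carried 11.6 and 11.9 FPKM of the IgG values and 1.64 and 0 of those of RIP. With transcripts of at least 500 bases alone the difference of Dlx6os1 was -1.76 (adjusted p = 0.000638). Its level against the interneuron enzymes also differed: Dlx6os1 equalled 17.0% and 19.97% of Gad1 plus Gad2 FPKM in RIP, 130% and 104% in IgG and 85.5% and 86.7% in input. The summed interneuron markers were close in the 3 kinds of library, at 369 and 378 FPKM in RIP, 383 and 332 in IgG and 403 and 371 in input.

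Sox2ot and Tug1 differed from IgG by nearly the same factor. Sox2ot stood at 14.6 and 16.4 FPKM in RIP and 31.9 and 32.2 in IgG, a log2 difference of -1.01 ± 0.14 (adjusted p = 0.00579). Tug1 stood at 20.1 and 21.6 FPKM against 44.5 and 37.5, a log2 difference of -0.94 ± 0.14 (adjusted p = 0.00741). Kcnq1ot1, a single transcript of 93092 bases, stood at 0.625 and 0.776 FPKM in RIP and 3.99 and 3.45 in IgG, a log2 difference of -1.47 ± 0.29 (adjusted p = 0.0173). Its call was lost whenever 1 of the 4 libraries was left out, with adjusted p from 0.0551 to 0.125.

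The remaining 5 did not pass against IgG. Malat1 stood at 1411 and 1421 FPKM in RIP and 1613 and 1736 in IgG, and Miat at 117 and 109 against 139 and 140, so both differed by under 1.3 times. Their log2 differences were -0.24 ± 0.09 (adjusted p = 0.0942) and -0.30 ± 0.10 (adjusted p = 0.0737), and that of Malat1 turned to 0.07 under quantile normalization. Neat1 stood at 0.261 and 0.288 FPKM against 1.90 and 2.40, with an adjusted p of 0.0521 at a log2 difference of -1.30 ± 0.37. Pantr1, at 24.2 and 31.8 against 37.0 and 31.6 FPKM, was the only one whose groups overlapped (adjusted p = 0.263), and with length and G and C trends removed its log2 difference of -0.29 turned to 0.09. Rmst stood at 3.20 and 3.69 against 3.76 and 5.83 FPKM (adjusted p = 0.382).

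Against input, 6 of the 10 were lower in the RIP and 0 were higher (limma, adjusted p under 0.05), where 16.6% of 14458 genes were called lower and 19.3% higher. The ranges did not overlap for 8, all lower in RIP, where 71.1% of genes did not overlap and 35.2% did so with RIP lower. The median log2 difference was -0.83, beside -0.02 over all genes. Both comparisons use the same 2 RIP libraries, so their differences are not independent of each other. Without RIP A 3 of the 10 were called lower. Neat1 and Kcnq1ot1 again passed the filter only through the other group.

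Dlx6os1 stood at 6.82 and 7.06 FPKM in RIP, as scaled in this table, and at 23.4 and 25.7 in input, a log2 difference of -1.68 ± 0.16 (adjusted p = 0.00133). Sox2ot stood at 14.8 and 16.7 against 37.2 and 40.9 FPKM, a log2 difference of -1.26 ± 0.14 (adjusted p = 0.00197). Tug1 stood at 20.4 and 21.9 against 45.3 and 49.4 FPKM, a log2 difference of -1.12 ± 0.12 (adjusted p = 0.00200). These 3 RNAs were lower in RIP than in either reference.

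Pantr1 passed against input and not against IgG, and the difference between these comparisons was not tested. It stood at 24.6 and 32.3 FPKM in RIP and 81.2 and 59.6 in input, a log2 difference of -1.27 ± 0.20 (adjusted p = 0.00573). With length and G and C trends removed that difference was -0.62 and no longer passed (adjusted p = 0.0510). Neat1 stood at 0.266 and 0.293 FPKM against 2.91 and 2.45, a log2 difference of -1.52 ± 0.34 (adjusted p = 0.0182).

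Malat1 stood at 1436 and 1443 FPKM in RIP and 1759 and 2158 in input, a log2 difference of -0.44 ± 0.11 (adjusted p = 0.0241). Its direction depends on the scaling: under quantile normalization it was higher in RIP by 0.54 (adjusted p = 0.00347). Gm26917 stood at 62.2 and 38.8 FPKM in RIP against 42.6 and 41.0 in input, with overlap, and its log2 difference of 0.23 ± 0.22 turned to -0.11 without RIP A. Miat stood at 119 and 111 against 119 and 122 FPKM, a log2 difference of -0.07 ± 0.09, and the groups overlapped. With length and G and C trends removed its log2 difference was -0.93 (adjusted p = 0.00234). Rmst, at 3.26 and 3.75 against 5.83 and 5.21 FPKM, and Kcnq1ot1, at 0.637 and 0.787 against 1.15 and 1.56, did not overlap with input and did not pass (adjusted p = 0.108 and 0.367).

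**Figure D3:**
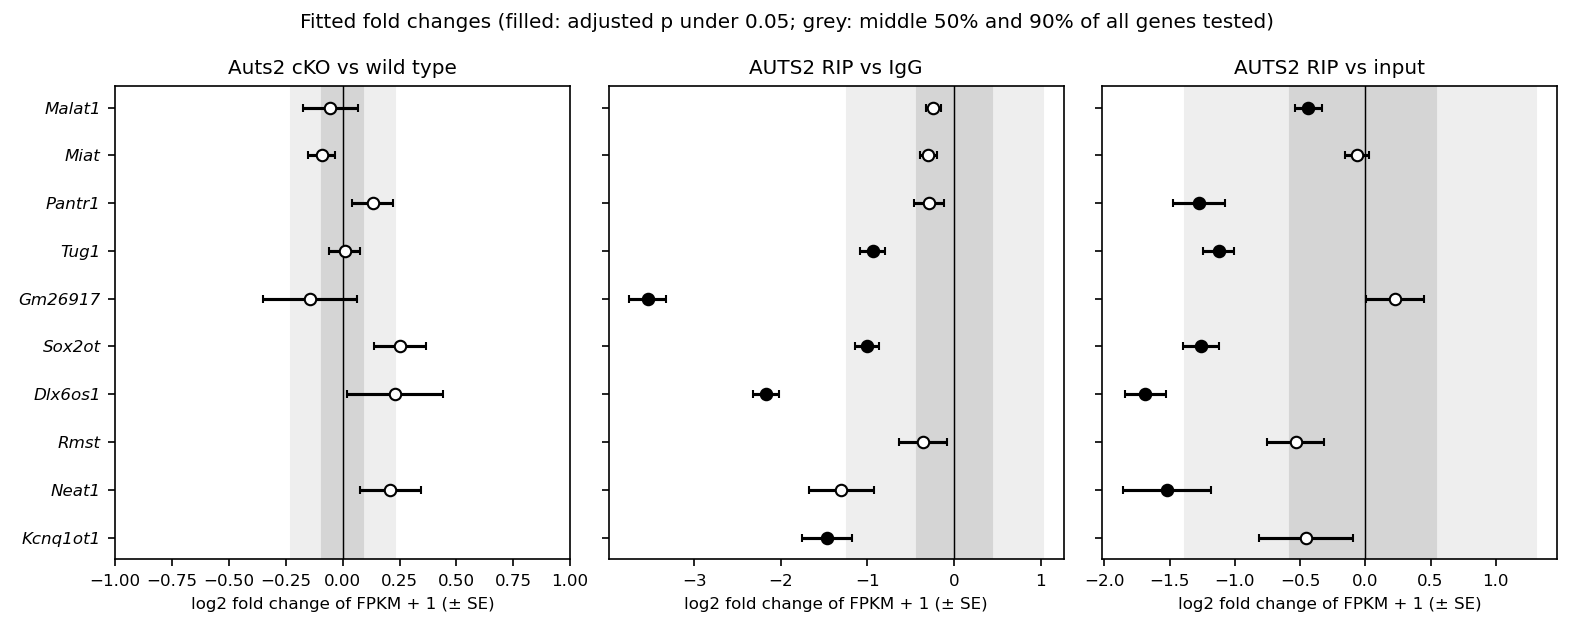
Log2 differences of log2(FPKM + 1) with SE for the 10 RNAs in cKO against wild type (8 tested), RIP against IgG and RIP against input, with filled points for adjusted p under 0.05 in limma. The cKO values lie near 0, and 5 and 6 RNAs are called lower in RIP.

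At the level of transcripts 0 of the 28 tested from these genes passed against IgG in limma, as 0 of all 31785 did. At an unadjusted p under 0.05 stood 10 of the 28, where 22.6% of all transcripts did. Among these 10, Sox2ot-204, Dlx6os1-204 and Kcnq1ot1-201 reached the filter of 1 FPKM only through the IgG libraries. The direction of those transcripts follows in part from that filter. Against input 3 of 30 were called lower and 1 higher, where 2.35% and 4.48% of 31322 transcripts were. The lower ones were Sox2ot-210 at 4.58 ± 0.182 FPKM in RIP and 19.6 ± 1.43 in input (adjusted p = 0.0303), Pantr1-207 at 7.71 ± 0.354 and 26.6 ± 0.417 (adjusted p = 0.0300) and Dlx6os1-202 (adjusted p = 0.0497). The higher one was Sox2ot-206, at 3.79 and 5.60 FPKM in RIP and 0.00127 and 0.0372 in input (adjusted p = 0.0477). It reached the filter of 1 FPKM only through the RIP libraries, so its direction follows from that filter. With the trio letter as a block, or without any 1 library, 0 of the 30 passed.

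The Sox2ot isoforms whose junctions are printed above took different shares in the kinds of library. Sox2ot-206 made up 25.6% and 33.5% of Sox2ot in RIP, 22.2% and 5.13% in IgG and under 0.1% in input. Sox2ot-210 made up 31.8% and 26.8% in RIP, 30.05% and 55.4% in IgG and 55.5% and 45.6% in input, and at most 9.80% in frontal cortex. For both isoforms the IgG libraries lay far apart from each other.

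Neat1 was divided between 3 listed transcripts. In polyA-selected frontal cortex the short Neat1-202, which ends in the AATAAA shown above, made up 77.7% to 97.5% of Neat1, and the long Neat1-201 2.49% to 5.33%. In the total RNA libraries the long form made up 48.6% and 60.7% in RIP, 25.9% and 24.1% in IgG and 32.1% and 33.4% in input. Neat1-202 made up 19.9% and 29.7% in RIP, 52.4% and 38.9% in IgG and 11.3% and 30.7% in input. The third, Neat1-203 of 1030 bases, made up 31.5% and 9.56% in RIP, 21.7% and 37.0% in IgG and 56.6% and 35.9% in input. The total RNA libraries were thus not split between the long and short forms alone. In level the long form was lower in RIP, at 0.127 and 0.175 FPKM, than in IgG at 0.492 and 0.578 or in input at 0.932 and 0.817. All bases of Neat1-202 lie within Neat1-201, and the read support of these low values is unknown.

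For Tug1 the estimates jumped between Tug1-202 and Tug1-203, which share 4660 bases. RIP A gave them 0.007 and 12.5 FPKM and RIP B 8.62 and 3.92, while the sum was 12.5 in both. Input A and B showed the same exchange, with 0.002 and 24.4 against 20.1 and 7.45 FPKM. The sum of the pair in input was 24.4 and 27.6 FPKM. Malat1-201 carried at least 96.3% of Malat1 and Miat-201 at least 77.9% of Miat in every library.

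Dlx6os1, Sox2ot, Pantr1 and Tug1 were also each set against a neighbouring gene within a library, which needs no scaling between libraries. These ratios were chosen after values had been seen and carry no test. Dlx6os1 stood at 0.306 and 0.251 times Dlx6 in RIP, 1.59 and 1.62 times in IgG, 1.59 and 2.81 times in input and 1.86 to 8.82 times in frontal cortex. These Dlx6os1 values include the short row Dlx6os1-204, with a mean of 0.822 FPKM in RIP and 11.7 in IgG, which raises the IgG ratios most. The ratio of Sox2ot to Sox2, the stem cell factor inside it, was 0.482 and 0.453 in RIP, 1.58 and 1.29 in IgG and 1.56 and 1.54 in input. In frontal cortex that ratio ran from 0.628 to 0.864 in wild type and from 0.859 to 0.997 in cKO, which overlap slightly.

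Pantr1 stood at 0.256 and 0.331 times Pou3f3, an upper layer neuron factor, in RIP, at 0.484 and 0.409 times in IgG and at 1.36 and 0.978 times in input. Tug1 stood at 0.311 and 0.412 times Morc2a, a chromatin ATPase gene, in RIP, 1.85 and 1.52 times in IgG and 2.87 and 2.56 times in input. In all 4 pairs the non-coding RNA was lowest against its mRNA in the RIP libraries. Of the mRNAs themselves, Morc2a was higher in RIP than in IgG by a log2 difference of 1.22 (adjusted p = 0.00392), while those of Dlx6, Sox2 and Pou3f3 were 0.20, 0.54 and 0.31 and did not pass. Against input Morc2a, Dlx6 and Pou3f3 were higher by 1.71, 1.05 and 0.67 (adjusted p = 0.00145, 0.0225 and 0.00392).

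**Figure D4:**
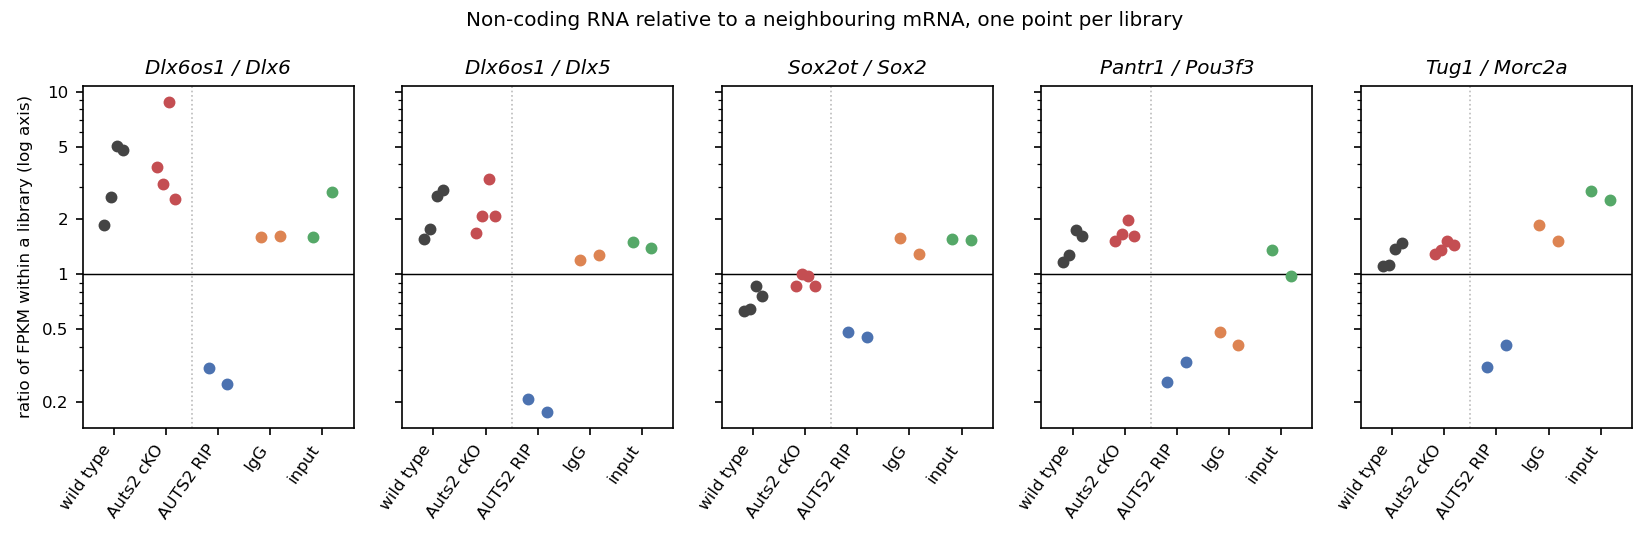
Ratio of FPKM of each non-coding RNA to its neighbouring mRNA within a library (log axis), 1 point per library. RIP libraries hold the lowest ratios in every pair, for example 0.251 and 0.306 for Dlx6os1 over Dlx6 beside 1.59 and 1.62 in IgG.

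Neighbours and protein partners were taken as 1 list of 22 genes, of which 19 were tested. None was called lower in RIP. Called higher were 4 against IgG (median log2 difference 0.18), where 13.7% of all genes were, and 9 against input (0.40), where 19.3% were. In the cKO 0 were called (median -0.02). Among those higher against IgG were Morc2a, Ehmt2 (the G9a methyltransferase gene) and Sf1 (the Miat-binding splicing factor).

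The mRNAs for proteins of the bodies that Malat1 and Neat1 occupy were mostly not lower in RIP. Of 16 nuclear speckle genes 10 were higher and 0 lower in RIP than in IgG, and the same counts held against input, with medians of 0.66 and 0.78. Of all genes 13.7% were higher and 9.69% lower than in IgG, and 19.3% and 16.6% against input. Srrm2, a core speckle protein, stood at 559 ± 5.1 FPKM in RIP and 231 ± 22 in IgG, a log2 difference of 1.27. The splicing factor genes Sf3b1, Acin1 and Srrm1 differed by 1.45, 1.38 and 1.25. Of 16 paraspeckle genes 4 were higher and 2 lower than in IgG (median 0.10), and 4 and 1 against input (0.01), beside the same shares of all genes. Among them Smarca4, Sfpq and Ewsr1 were higher by 1.13, 0.96 and 0.56, and Taf15 had a log2 difference of -0.996. In the cKO 0 of 16 were called in both lists, with medians of -0.04 and 0.04.

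Other long non-coding RNAs were called in either direction. Of 30 tested, 4 were higher and 8 lower in RIP than in IgG (median -0.22), where 13.7% and 9.69% of all genes were. Dleu2, among the 8, stood at 0.793 FPKM in RIP and 4.46 in IgG. It reached the filter only through IgG, so its direction follows in part from that filter. Against input 5 were higher and 6 lower (median -0.17), where 19.3% and 16.6% of all genes were. Snhg14, the snoRNA host of the Prader-Willi region, was higher than in IgG by 1.01. Among the lower ones were the imprinted H19 at -2.22, the X inactivation RNA Xist at -1.93 and 2900097C17Rik at -1.66. In the cKO 30 were tested, with Mir17hg in place of Nespas, and 0 were called (median 0.10). The smallest p belonged to Rian, an RNA of the imprinted Dlk1-Dio3 locus, at 513 ± 13.8 FPKM against 404 ± 60.8 in wild type (log2 difference 0.36, limma, adjusted p = 0.614).

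Gm42418 and small structured RNAs of RNA polymerase III were listed beside Gm26917, and their likeness to it in sequence was not measured. Of 6 tested, 5 were lower in RIP than in IgG (median -1.49), where 9.69% of all genes were, and 6 were lower than input (median -3.48), where 16.6% were. Gm42418 stood at 68.5 ± 3.5 FPKM in RIP and 178 ± 6.6 in IgG, a log2 difference of -1.37, and differed from input by -0.91. Rpph1, the RNA of ribonuclease P, and Rn7sk, which holds back the elongation factor P-TEFb, differed from IgG by -2.04 and -0.94. Gm26917 was lower than in IgG, and against input it did not pass.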

How the data were processed

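The deposited values are FPKM per transcript, which the authors made with STAR 2.5, SAMtools and Cuffdiff 2.2.1 on GRCm38.p4 (mm10), per the submitters' processing notes, for GENCODE vM14 transcripts, per the file headers. Frontal cortex libraries were polyA-selected (TruSeq), and RIP, IgG and input libraries from total RNA with a stranded SMARTer kit, per the protocols in the labels. No source used here gives filters, strand setting or library scaling. Transcripts were summed per symbol by identifier in GENCODE vM21 (127975 of 128508 matched). RIP libraries differed between their tables by a factor of 1.018 (A) and 1.015 (B), so tests stay within a table. Genes or transcripts with a mean of at least 1 FPKM were tested on log2(FPKM + 1), which understates changes of low genes, with limma 3.58.1 (R 4.3.3; trend, robust, two-sided, Benjamini-Hochberg at 0.05 over the whole table). Isoform shares of at least 5% were tested by exact permutation. Python 3.11.15, pandas 2.3.3, numpy 2.4.6, scipy 1.17.1 and matplotlib 3.10.9 were used. The fits were tested on simulated data.

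The series design states matched trios, so the letters pair RIP with IgG and input. The main fits did not use this pairing, and the replicate block did. Deviations from the group mean correlated over genes between RIP and the same letter of IgG or input at r = 0.00879 and 0.0120, so they show little shared variation within trios. Frontal cortex numbers are names only, and cKO 4 was matched by its library number. The labels call libraries biological replicates. The 10 genes and the gene lists were chosen with earlier results of these data known. Named genes are the 10, isoforms of at least 5% or called, up to 4 genes of the smallest p per list, and the 3 nearest in pattern; some genes that this selects are not reported here. Alternatives were pseudocounts of 0.1 and 5, a filter of 5 FPKM or none, median-ratio and quantile scaling, limma without trend, a replicate block, transcripts of at least 500 bases, removal of length and GC trends, Xist state as a covariate in frontal cortex, and leaving out each library.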

Additional observations from a re-analysis of the deposited data

Results flagged for a closer look

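In 3 of 20 groups of 4 frontal cortex libraries, 1 library lay far from the other 3 by Dixon's criterion, where chance gives about 1 in 20 groups. Pantr1 was low in wild type 1 at 82.8 FPKM. Tug1 was high in wild type 4 at 53.1 FPKM and low in cKO 1 at 44.7 FPKM.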

How the results depend on the processing

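The count of 0 called in the cKO held under all 18 settings run, the replicate block included, and the block left the 5 and 6 genes lower in RIP unchanged. Against IgG the 5 lower became 8 under median-ratio rescaling and 0 to 4 when a library was left out (2 without RIP A, 0 without IgG A), and 1 transcript was called lower with a pseudocount of 5. Against input the 6 lower became 3 to 5 when a library was left out (3 without RIP A), and 1 gene, Malat1, was called higher under quantile normalization. The 1 transcript higher against input became 0 with pseudocounts of 0.1 and 5, under the replicate block and without any 1 library, and the 3 lower became 0 under the block and without any 1 library.

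Directions turned for Malat1 in the cKO without cKO 1 (0.040, range over left-out libraries -0.14 to 0.04), and for Tug1 in the cKO under quantile normalization (-0.017) and without any of 6 libraries (range -0.0089 to 0.057). Against IgG they turned for Malat1 under quantile normalization (0.068) and Pantr1 with length and GC trends removed (0.092). Against input they turned for Malat1 under quantile normalization (0.54) and for Gm26917 without RIP A (-0.11, range -0.11 to 0.56) and with length and GC trends removed (-0.59). The cause was not tested. Neat1 passed against IgG with length and GC trends removed (-1.65, adjusted p = 0.0301, limma) and Miat did so too (-0.81, adjusted p = 0.00563). The depth is unknown, so it sets no limit that can be stated.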
